A study of Homo sapiens with 5 samples.

Results

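The FOXB1 peaks around 10 loci that carry pluripotency or neural plate factor genes were examined: SOX2, POU5F1, NANOG, LIN28B, OTX2, PAX6, SOX1, SOX21, SIX3 and ZEB2. A peak belonged to a locus when its centre lay within 500 kb of a fixed hg19 point near the gene, so each locus is a window of 1 Mb. By this rule 34 of the 7759 peaks in all 4 deposited lists were members, 17 in each of the 2 wild-type (WT) lists and 0 in each of the 2 knockout (KO) lists. The points are rounded to 10 kb, and no annotation of the hg19 build was used, so distances are given from the points and no peak was assigned to a gene or to an exon, intron or UTR.

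ChIP-seq (chromatin immunoprecipitation followed by sequencing) was done with an anti-FOXB1 antibody on cells at day 3 of differentiation, labelled as pre-neural crest cells. All groups came from the established embryonic stem cell line WA01, of human origin, plated in medium with the GSK3 inhibitor CHIR 99021, which activates Wnt signalling, and with the ROCK inhibitor Y-27632 at the start. The groups were Wildtype cells (2 libraries), the FOXB1 dgRNA-KO line, in which CRISPR/Cas9 had removed the coding sequence of the FOXB1 DNA-binding domain (2 libraries), and a Wildtype input without antibody (1 library). The sources used here do not say whether the KO line is 1 clone. Peak lists hold no expression values, so neither the loss of FOXB1 nor markers of the cell type could be checked.

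FOXB1 is a forkhead transcription factor, a family that binds DNA through a winged-helix domain at sequences with an AAACA core. SOX2, POU5F1 (OCT4) and NANOG form the core transcription factor circuit of pluripotent stem cells, and LIN28B is an RNA-binding protein that blocks maturation of let-7 microRNAs. As stem cells leave pluripotency toward neural fate, OCT4 and NANOG are shut down while SOX2 is kept and its relative SOX1 comes on as an early marker of the neural plate. OTX2 and SIX3 mark the anterior neural plate, PAX6 the neural tube and eye field, SOX21 neural progenitors, and ZEB2 is a zinc finger repressor active in neural induction and in neural crest.

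Upstream sequences are shown for SOX1, SOX21 and LIN28B, because these were the loci with a site found in both WT lists. Each is the 250 bases before an annotated gene start, 5′ to 3′ on the strand of the gene, from RefSeq on GRCh38.p14, whose positions cannot be set beside the hg19 positions of the peaks. Capitals mark matches to the forkhead hexamers TAAACA and CAAACA, searched on both strands.
SOX1 (chr13:112066899-112067148, + strand): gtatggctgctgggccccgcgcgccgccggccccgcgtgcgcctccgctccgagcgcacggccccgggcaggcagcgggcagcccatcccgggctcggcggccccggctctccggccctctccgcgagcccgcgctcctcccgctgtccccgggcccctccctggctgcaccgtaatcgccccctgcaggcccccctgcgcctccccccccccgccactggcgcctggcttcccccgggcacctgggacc
SOX21 (chr13:94712546-94712795, - strand): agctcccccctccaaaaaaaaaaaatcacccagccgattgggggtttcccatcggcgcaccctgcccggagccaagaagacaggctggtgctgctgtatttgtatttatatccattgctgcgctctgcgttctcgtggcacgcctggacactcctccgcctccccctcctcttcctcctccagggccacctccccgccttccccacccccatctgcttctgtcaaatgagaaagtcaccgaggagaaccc
LIN28B first start (chr6:104940715-104940964, + strand): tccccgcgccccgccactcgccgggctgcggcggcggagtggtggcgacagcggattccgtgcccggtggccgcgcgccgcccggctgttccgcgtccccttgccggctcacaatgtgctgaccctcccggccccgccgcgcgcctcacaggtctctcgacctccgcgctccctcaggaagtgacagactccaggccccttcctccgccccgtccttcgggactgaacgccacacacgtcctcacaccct
LIN28B second start (chr6:104956857-104957106, + strand): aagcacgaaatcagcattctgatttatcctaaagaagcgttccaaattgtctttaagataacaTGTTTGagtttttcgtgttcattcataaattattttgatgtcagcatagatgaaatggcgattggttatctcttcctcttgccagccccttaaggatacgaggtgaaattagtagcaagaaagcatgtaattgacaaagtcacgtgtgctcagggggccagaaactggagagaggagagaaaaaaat
The SOX1 sequence was 82% G and C with 31 CpG dinucleotides and no match. SOX21 (58.8% G and C, 11 CpG) and the first LIN28B start (73.6% G and C, 33 CpG) also had no match, and the second LIN28B start had 1, TGTTTG at position 64 counted from the 5′ end. The table held 18 starts for 8 of the 10 members (SOX2, NANOG, LIN28B, OTX2, PAX6, SOX1, SOX21 and ZEB2), and 3 of the 18 (16.7%) held a match, the others being 2 PAX6 starts. Among 35116 upstream windows of the same length 21.6% held one. A match is only these letters, not a site, and these windows were not placed relative to the peaks.

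The 4 libraries held 15106068 to 22637495 tags (aligned reads), more in WT than in KO. A peak needed 16 or 17 tags in a window of 317 or 321 bp in the WT lists and 12 or 13 tags in a window of 179 or 186 bp in the KO lists. Peak height is the normalized tag count, in tags per 10000000 tags of the library, as given by the authors' peak caller, and the fold over input and the input tags per peak are also the authors' values. The labels do not say that replicates came from separate cultures, so the spread between libraries may be technical, and intervals cover counting error only.

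Most of the 10 loci held at least 1 WT peak, and SOX1 held the most in each list. In WT replicate 1 there were 5 peaks at SOX1, 4 at SOX2, 3 at LIN28B, 2 each at SOX21 and SIX3, 1 at PAX6 and 0 at POU5F1, NANOG, OTX2 and ZEB2. In WT replicate 2 there were 8 at SOX1, 3 at LIN28B, 2 at ZEB2, 1 each at POU5F1, OTX2, PAX6 and SOX21 and 0 at SOX2, NANOG and SIX3. The pluripotency loci thus held 7 and 4 peaks over 4 windows and the neural plate loci 10 and 13 over 6 windows. Of these, 2 sites in the pluripotency windows and 5 in the neural plate windows were in both WT lists, up to 436.3 kb from a point. The SOX1 window alone held 5 and 8 of the neural plate peaks and 4 of those 5 sites. Over the rest of the same chromosomes there were 1.06 and 1.34 WT peaks and 0.705 shared sites per Mb, the size of 1 window. No difference between the 2 groups of loci was tested.

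The number of occupied loci was close to the background of the genome. A peak of WT replicate 1 lay in 6 of 10 loci, against 60.0% of all 2875 complete 1 Mb tiles of the 22 autosomes, and a peak of WT replicate 2 lay in 7 of 10 loci, against 65.8% of tiles. A site in both lists lay in 3 of 10 loci (SOX1, LIN28B and SOX21), against 47.4% of tiles. A peak of either WT list lay in 9 of 10 loci, all but NANOG, against 72.4% of tiles. A peak of each WT list lay in 4 loci, LIN28B, PAX6, SOX1 and SOX21, and the share of tiles with both is not given here. The tiles are not centred on genes and include unsequenced stretches, so they are a background for windows of this size and not for gene neighbourhoods.

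**Figure D1:**
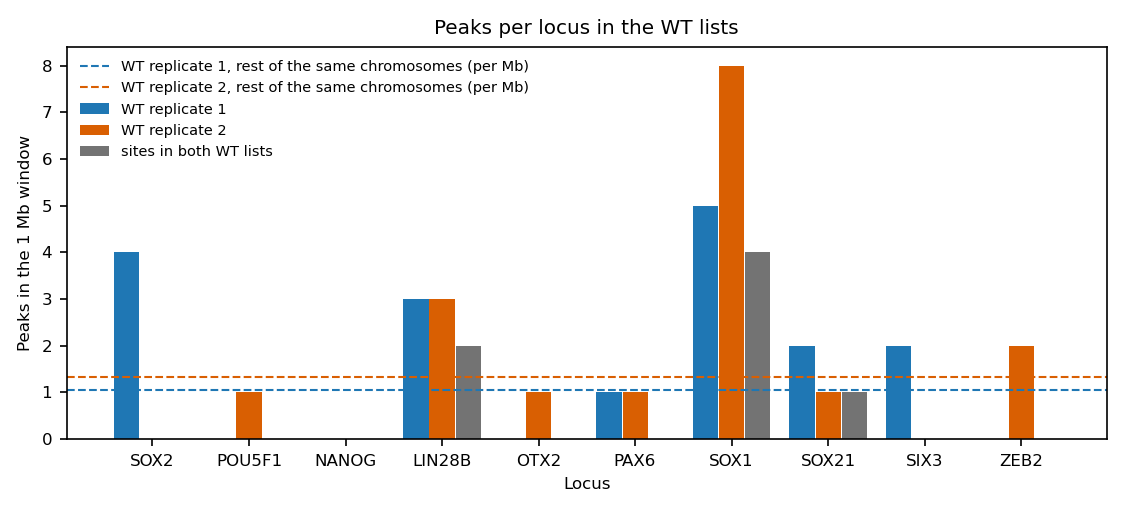
Peaks in the 1 Mb window of each locus in WT replicate 1 (blue), WT replicate 2 (orange) and in both (grey); dashed lines give the peaks per Mb over the rest of the same chromosomes. SOX1 has the highest bars, 5 and 8 peaks with 4 shared, while NANOG has none and SOX2, SIX3, OTX2, ZEB2 and POU5F1 have peaks in 1 list alone.

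SOX1 encodes a SOXB1 transcription factor of neural progenitors. Its window on chromosome 13 (112220000 to 113220000) held 9 sites, 4 of them in both WT lists. The number of peaks was 5 (Poisson 95% interval 1.62 to 11.7) and 8 (3.45 to 15.8) per Mb, while the rest of chromosome 13 held 0.831 and 0.972 per Mb. That rest was taken over the full chromosome length, unsequenced stretches included, which lowers its density. The window lies toward the end of the chromosome, which is 115.2 Mb long, and position along the chromosome was not matched. At least 5 peaks of WT replicate 1 were found in 2.43% of autosomal tiles, at least 8 of WT replicate 2 in 1.67% and at least 4 shared sites in 1.91%. SOX1 is the fullest of 10 windows, so these shares describe a window picked after its count was seen.

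**Figure D2:**
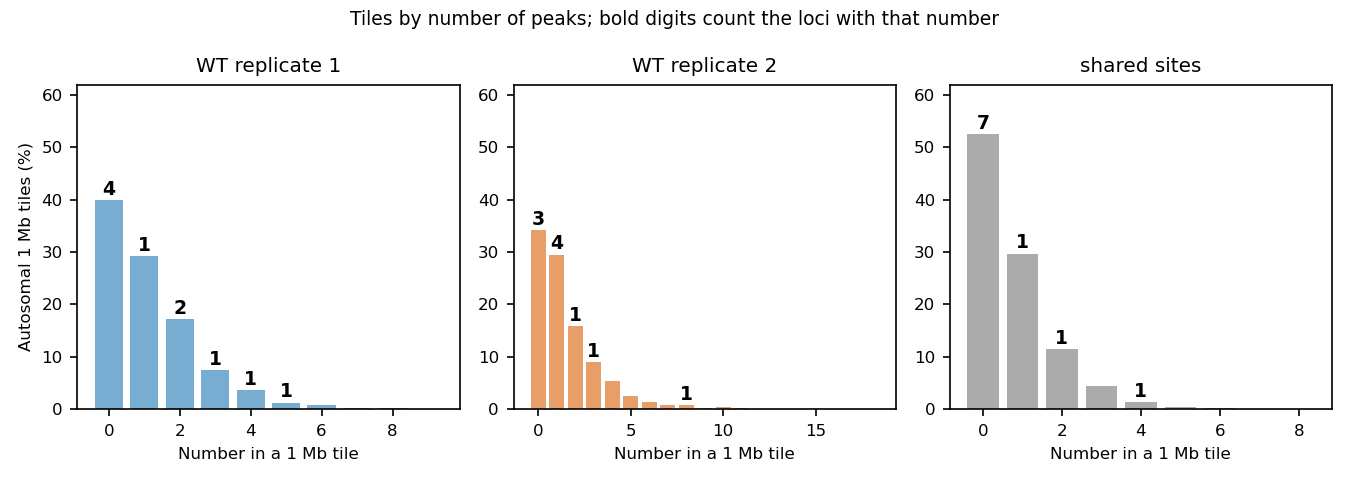
Share of the 2875 autosomal 1 Mb tiles (y axis, percent) by the number of peaks they hold (x axis) in WT replicate 1, WT replicate 2 and for shared sites; bold digits count how many of the 10 loci have that number. SOX1 is the locus farthest to the right in each panel, at 5, 8 and 4, and the other 9 loci lie between 0 and 4.

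The SOX1 site nearest to the point lay 3.4 kb before it, at 112716472 to 112716788, with heights of 15.2 and 15.9 normalized tags in WT replicates 1 and 2 (mean 15.6 ± 0.495, SD, n = 2). It was the tallest SOX1 peak in both lists, stood 10.5 and 11.0 times above input on 2 input tags, and was higher than or level with 91.5% and 94.6% of all peaks of its list. A neighbour 13.4 kb beyond the point, at 112733207 to 112733523, had heights of 9.43 and 9.28, and its windows in the lists shared only 126 bp. The site 109.3 kb before the point, at 112610509 to 112610825, differed most among the 4 shared SOX1 sites, with 9.43 and 15.0. The fourth, at 112804829 to 112805145 and 85 kb beyond the point, was low in both lists, at 8.38 and 7.51. So 3 of the 4 shared SOX1 sites differed by under 1 normalized tag between the WT libraries, and 1 was 1.59 times higher in WT replicate 2.

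The other 5 SOX1 sites were each in 1 list. WT replicate 1 alone had a peak of 7.86 normalized tags 125.3 kb before the point. WT replicate 2 alone had 3 low peaks of 7.51, 8.39 and 8.39 between 446.5 and 401 kb before it and 1 of 12.8 at 460.7 kb beyond it. That last peak had 4 input tags and was 4.42 times the input, close to the limit of 4 that the caller set. SOX1 sites in both lists had 1 to 3 input tags in either list.

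LIN28B, on chromosome 6, was the only pluripotency locus with sites in both WT lists. The site at 105140698 to 105141014, 259.1 kb before the point, had heights of 9.95 and 12.4 normalized tags. The site at 105299907 to 105300223, 99.9 kb before it, had 10.5 and 10.2 with no input tag, so the folds of 28.9 and 28.0 rest on the floor value of 0.5 tags and are not exact. Close to the point the lists differed: WT replicate 1 had a peak of 7.86 at 37.7 kb beyond it and WT replicate 2 one of 8.83 at 11.1 kb before it. The protein-coding neighbours of LIN28B in RefSeq's gene order are HACE1 and POPDC1, and the shared sites were not assigned to any of these genes.

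SOX21, a SOXB2 factor of neural progenitors, had 1 site in both lists, at 94923545 to 94923861 on chromosome 13 and 436.3 kb before the point, near the edge of its window. Its heights were 9.43 and 13.7 normalized tags (mean 11.6 ± 3.02, SD, n = 2), at 13.0 and 18.9 times the input on 1 input tag. This site was thus 1.45 times higher in WT replicate 2. WT replicate 1 also had a peak of 8.90 at 240.3 kb beyond the SOX21 point.

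The remaining pluripotency loci had no site in both lists. SOX2 (chromosome 3) had 4 peaks in WT replicate 1 of 8.38 to 9.43 normalized tags, at 101.9 and 16.5 kb before and 168.6 and 405.2 kb beyond the point, on 1 or 2 input tags. WT replicate 2, the deeper library, had 0 there, a count that allows up to 3 peaks, and its nearest peak was 1081.2 kb away. The 4 SOX2 heights were all at or below the median of that list, 9.95. POU5F1 (chromosome 6) had a single peak of 7.95 in WT replicate 2, 253.6 kb before its point. NANOG (chromosome 12) had no peak, the nearest being 1012.9 kb before the point in WT replicate 1 (height 9.43) and 907.8 kb beyond it in WT replicate 2 (height 7.51).

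At the anterior neural plate factors each list found other sites. OTX2 (chromosome 14) had the tallest peak of all 10 loci, 19.4 normalized tags at 57322543 to 57322863 in WT replicate 2, 42.7 kb beyond the point. It had 5 input tags and 5.36 times the input; with that many input tags a height of 14.5 is needed to reach 4 times the input. SIX3 (chromosome 2) had a peak of 13.1 in WT replicate 1 at 45150768 to 45151084, 19.1 kb before its point, with 3 input tags, and a lower one of 7.86 at 387 kb before it. Neither the OTX2 nor the SIX3 peak was in the other WT list, and the lists do not say how many tags those places had.

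PAX6 and ZEB2 had low peaks only. At PAX6 (chromosome 11) WT replicate 1 had a peak of 7.86 normalized tags 256.6 kb beyond the point and WT replicate 2 one of 6.63 at 233 kb, which do not overlap. ZEB2 (chromosome 2) had 2 peaks in WT replicate 2, of 8.83 at 145273465 to 145273785, 6.4 kb before the point, and of 7.95 at 190 kb beyond it. The first had no input tag, and its fold of 25.6 is computed against the floor. WT replicate 1 had no peak in the ZEB2 window.

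**Figure D3:**
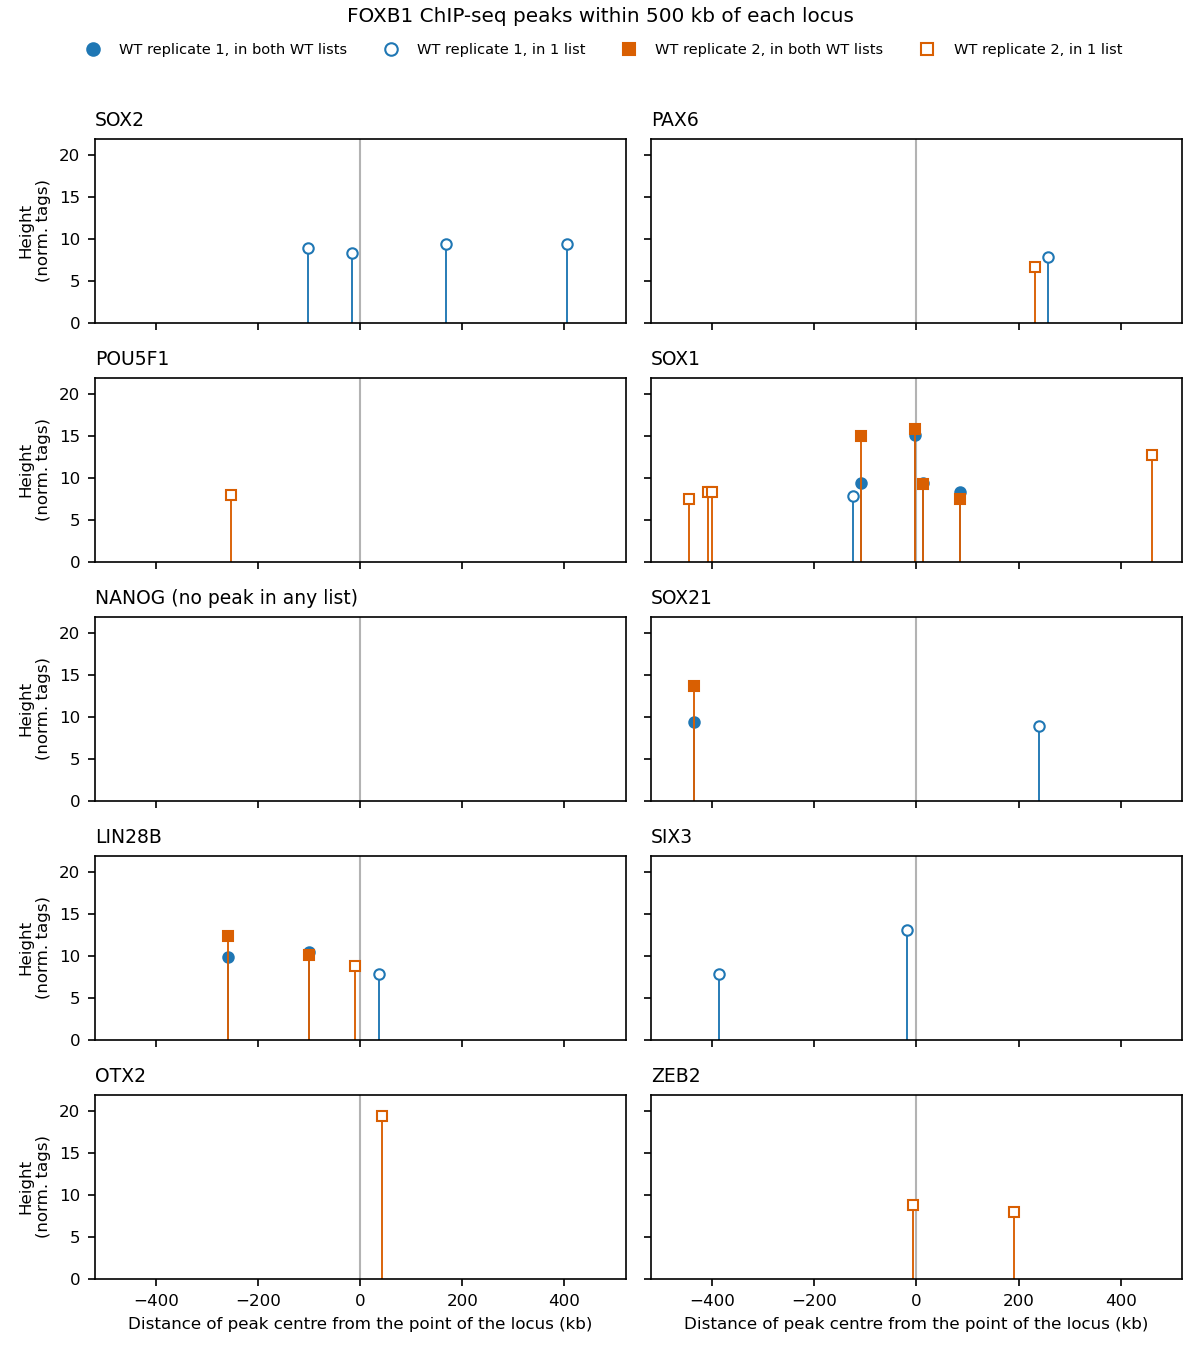
Each WT peak in the 10 windows by its distance from the point of the locus (x axis, kb) and its height (y axis, normalized tags); circles are WT replicate 1, squares WT replicate 2, and filled symbols mark sites in both lists. Filled symbols appear only at SOX1 (4 sites), LIN28B (2) and SOX21 (1), and the tallest symbol is the OTX2 peak of 19.4 in WT replicate 2.

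Some peaks lay close to the limit of 500 kb. The farthest peak inside was the SOX1 peak of 12.8 normalized tags at 460.7 kb, and the nearest outside was one of 8.39 at 528.9 kb beyond the SOX21 point. Near OTX2, a site 695.1 kb before the point had heights of 23.6 and 35.8 in WT replicates 1 and 2, taller than every peak inside the 10 windows.

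Summed over the 10 windows, the density of WT peaks was above that of the rest of the same 7 chromosomes, but within counting error. It was 1.7 per Mb (Poisson 95% interval 0.990 to 2.72) in each list, while the rest held 1.06 per Mb (1.00 to 1.12) in WT replicate 1 and 1.34 per Mb (1.27 to 1.41) in the other list. The ratios were 1.60 (exact conditional 95% interval 0.929 to 2.57) and 1.27 (0.737 to 2.04), with a mean of 1.43 ± 0.235 (SD, n = 2). With the window of SOX1 left out, which was picked for its high count, the ratios were 1.25 (0.647 to 2.20) and 0.746 (0.341 to 1.42). For sites in both lists the density was 0.7 per Mb in the 10 loci and 0.705 in the rest, a ratio of 0.993 (0.398 to 2.06). Among the peaks in the upper part of each list by findPeaks score (the list median or more), the mean ratio was 0.786. It rests on few peaks, only 4 of the loci in WT replicate 1, and has no interval.

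Peaks were densest close to the points. Within 50 kb, a distance chosen after the values were seen, there were 5 peaks in each list in 1 Mb of sequence. These were SOX2, LIN28B, SIX3 and 2 SOX1 peaks in WT replicate 1 and LIN28B, OTX2, ZEB2 and 2 SOX1 peaks in WT replicate 2. That was 5 per Mb (1.62 to 11.7), or 4.70 (1.52 to 11.0) and 3.73 (1.21 to 8.73) times the density of the rest of the chromosomes. Without SOX1 the ratios were 3.13 (0.645 to 9.17) and 2.49 (0.512 to 7.28). Between 250 and 500 kb WT replicate 1 had 1 peak per Mb (0.325 to 2.33) and WT replicate 2 had 1.4 per Mb (0.563 to 2.88).

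Of the 10 loci, 6 had a WT peak of either list within 50 kb of the point (SOX2, LIN28B, OTX2, SOX1, SIX3 and ZEB2), against 15.9% of all 100 kb tiles of the autosomes. Each list had such a peak at 4 loci, 2 of which, SOX1 and LIN28B, were the same, and only at SOX1 did the peaks overlap. Whether windows centred on other genes hold as many peaks was not tested, since gene positions in hg19 were not used here.

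**Figure D4:**
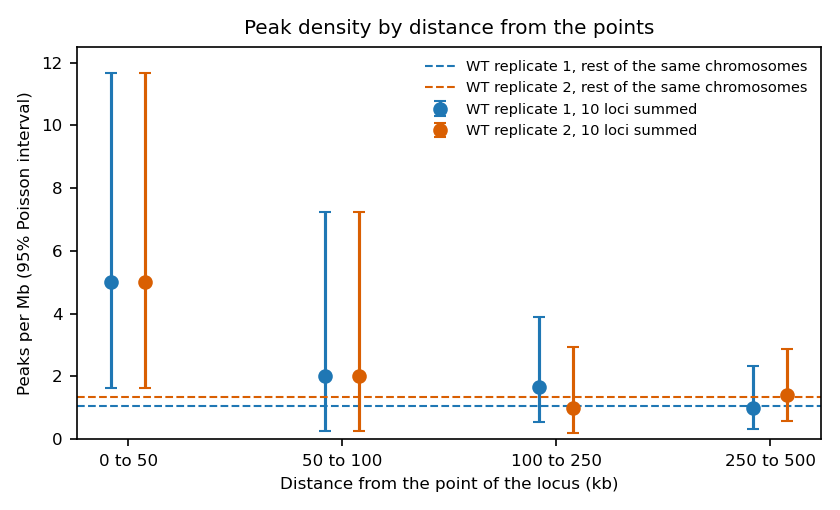
Peaks per Mb, summed over the 10 loci, in bands of distance from the points (x axis, kb) for WT replicates 1 and 2, with Poisson 95% intervals as bars; dashed lines give the rest of the same chromosomes. Both lists are at 5 per Mb within 50 kb, and beyond 100 kb the intervals cover the dashed lines.

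The median peak in the 10 loci was slightly lower than elsewhere on the same chromosomes. The median height was 9.43 normalized tags (7.86 to 15.2, 17 peaks) in WT replicate 1, against 10.5 over 1162 other peaks, and 8.83 (6.63 to 19.4, 17 peaks) in WT replicate 2, against 9.72 over 1466. The mean ratio of medians was 0.903 ± 0.00731 (SD, n = 2). This SD is the spread between the 2 libraries and not the error of a median over 17 peaks. The ratio was 0.992 for shared sites and turned to 1.09 among peaks with a score of the list median or more. In WT replicate 1 even the upper quartile of the loci, 9.43, was below the median of the rest, while in WT replicate 2 the upper quartile of 12.8 was above the 11.9 of the rest. At SOX1 the medians were 9.43 and 8.84 and at the other 9 loci 9.16 and 8.83, so the SOX1 peaks were more numerous without being taller as a group. No test was run over peaks, which are not replicates.

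**Figure D5:**
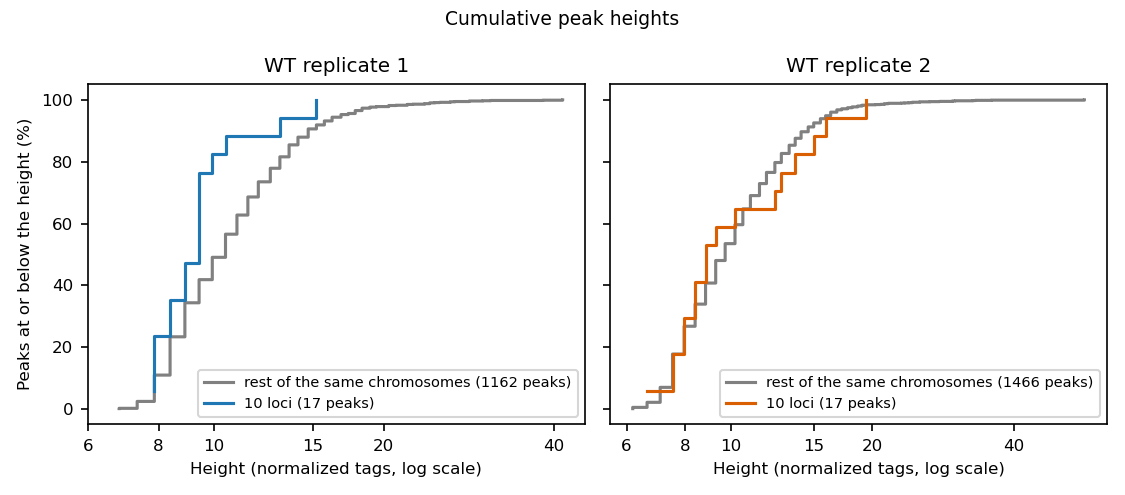
Cumulative share of peaks (y axis, percent) by height (x axis, normalized tags, log scale) in WT replicate 1 and WT replicate 2; the coloured line is the 17 peaks of the 10 loci and the grey line the rest of the same chromosomes. From its lowest peak of 7.86 upward the coloured line lies left of the grey line in WT replicate 1, with medians of 9.43 and 10.5, and crosses it in WT replicate 2.

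The share of peaks with 2 or more input tags was higher in the loci than elsewhere, on only 17 peaks per list and with no interval. In each WT list 10 of the 17 peaks (58.8%) had 2 or more input tags, against 45.9% and 43.5% of peaks over the rest of the same chromosomes. The 2 lists are not independent here, since there was only 1 input library and 7 of the 17 peaks in each list were shared sites. In the loci the folds over input had medians of 6.86 and 6.90, against 11.6 and 10.4 in the rest, and at SOX1 they were 6.50 and 6.34. The median number of input tags was 2 in the loci and 1 in the rest in both lists, so these folds turn on single input tags. The fold over the surrounding 10 kb was nearer to the rest, with medians of 7.33 and 6.99 against 8.26 and 7.48, and at SOX1 9.01 and 8.60. The part of the input in the counts at SOX1 was not tested. With peaks of at least 8 times the input, the mean ratio of densities fell to 1.08.

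The share of peaks found by both WT libraries was lower in the loci than elsewhere, with a wide interval. Of the 17 peaks in each list 7 were shared, 41.2% (exact Clopper-Pearson 95% interval 18.4 to 67.1%). Over the rest of the same chromosomes the share was 66.4% (63.6 to 69.1%) of WT replicate 1 and 52.6% (50 to 55.2%) of WT replicate 2. At SOX1 4 of 5 and 4 of 8 peaks were shared, and at the other 9 loci 3 of 12 (25%, 5.49 to 57.2%) and 3 of 9 (33.3%, 7.49 to 70.1%). In WT replicate 1 the tallest unshared peak of the loci had 13.1 normalized tags, at SIX3. Among peaks of the rest up to that height the share was 61.5% (58.3 to 64.6%). That limit was taken from the loci, was not applied to their own share and does not match the heights of the 2 parts. Among peaks with a findPeaks score of the list median or more, 3 of 4 in the loci (75%, 19.4 to 99.4%) and 70.6% (67.0 to 74.1%) of 664 in the rest were shared.

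In the KO lists none of the 10 loci held a peak. The counts were 17 and 17 in WT replicates 1 and 2 and 0 and 0 in KO replicates 1 and 2, so the genotypes did not overlap. Nor did they over the whole lists, with 3348 and 4388 peaks in WT and 11 and 12 in KO. The rest of the same chromosomes held 1162 and 1466 WT peaks and 1 peak in each KO list. A count of 0 allows up to 3 peaks, and the difference on the log2(peaks + 1) scale was 4.17. The lists were called with unequal tag thresholds and windows, so no fold is given. An exact permutation test over the 4 libraries (two-sided) gave p = 0.333, and no smaller p is possible with 2 libraries per genotype. KO peaks were rare everywhere, with 0.626% of the autosomal 1 Mb tiles holding one, so their absence from SOX1, LIN28B or any other locus is not particular to these loci.

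How many WT peaks of the loci would pass in a KO library depended on the window. With the findPeaks score, the tag number that the caller holds against its threshold, scaled to the depth of KO replicate 1, 17 and 16 of the 17 WT peaks reached the 12 tags needed there. The calling thresholds largely set this outcome. In WT replicate 1 the threshold of 16 tags, scaled in the same way, already exceeds 12, so every peak had to pass. In WT replicate 2 only a peak at the threshold of 17 tags could fail. With the score also scaled to the 179 bp window of KO replicate 1, 1 and 4 peaks reached the 12 tags. These were the SOX1 site next to the point in both lists and, in WT replicate 2, the SOX1 site 109.4 kb before it, the SOX21 site 436.4 kb before its point and the OTX2 peak. Whether tags lie evenly within a called site, as the scaling to the window assumes, was not tested. The share of WT peaks outside the loci that would pass is not given here. These counts therefore cannot be read as particular to the loci. The exact permutation p was 0.333 under either scaling, and KO replicate 2 was not used for it.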

How the data were processed

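FOXB1 ChIP-seq was done on 2 WT and 2 KO libraries with 1 input. BWA 0.7.17, Picard, HOMER 4.10 and hg19 are named, with no role, in the submitters' processing notes. Peaks were called for each library alone with HOMER findPeaks at a false discovery rate of 0.001, with at least 4 times the input and 4 times the surrounding 10 kb, per the file headers. The name of the input directory in the headers holds several day labels, so input tags may not be of day 3 alone.

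The deposited height is a signal, in tags per 10000000 tags, and deposited input tags are a signal with a floor of 0.5. Deposited folds are linear ratios and the deposited score is a tag number per peak. The deposited focus ratio, a fraction, and the deposited p-values were not used. These are the authors' values.

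Groups came from the sample titles. Windows, overlaps (at least 1 bp) and tile counts were computed here and tested on simulated lists, with hg19 lengths from GenomeInfoDb 1.38.1, Python 3.11.15, numpy 2.4.6, pandas 2.3.3 and scipy 1.17.1. Library totals were 15106068 to 22637495 tags. Genotypes were compared as log2(peaks + 1) with an exact permutation test. Full tilings replaced random windows. Named were all shared sites, the nearest peak to each point and the tallest per window and list. Window width, filters, overlap rules and left-out libraries were varied. The loci and settings were chosen with earlier results of these data known. Other pathway genes were not placed, since no hg19 gene table was used here.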

Additional observations from a re-analysis of the deposited data

How the results depend on the processing

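Both KO counts were 0, so narrower windows, stricter filters, scalings and left-out libraries could not turn the direction of the genotype difference, and its exact permutation p of 0.333 (0.5 with the block) is the floor of the design. On the log2(peaks + 1) scale it ranged over 18 alternatives from 1.5 to 4.82 (half-width 1 Mb). With both depth and window set to those of KO replicate 1 it was 1.5 by normalized tags and 1.66 by score. Scaled to depth alone it was 3.86 by normalized tags, by which 4 peaks of WT replicate 1 lie under their own threshold, and 4.13 by score. The scalings by score and to the window were chosen after seeing the data. It stayed at 4.17 (lowest and highest) with any 1 library left out. Blocking on the replicate number also gave 4.17, and the exact sign-flip p was 0.5, the smallest for 2 pairs; the labels give no pairing beyond a shared number.

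The density ratio, 1.43, was 1.27 without WT replicate 1 and 1.60 without WT replicate 2. It was 1.38 with chromosome lengths set to the span from the first to the last WT peak. It was 1.88 at a half-width of 250 kb and 1.14 at 1 Mb, and, chosen after seeing the data, 2.95 at 100 kb, 4.21 at 50 kb and 1.00 without SOX1. It was 1.08 for at least 8 times the input, 0.993 for shared sites and 0.786 for scores at or above the median. The height ratio, 0.903, was 0.898 and 0.908 with 1 WT library left out. It was 0.892 at 1 Mb, 0.926 at 100 kb, at 50 kb and for 8 times the input, 0.928 for 3 or fewer input tags and against all autosomes, 0.915 without POU5F1 and with 1 height minimum, 0.992 for shared sites, 0.891 without SOX1 and 1.09 for scores at or above the median, where few peaks are left. The shared percentage, 41.2%, was 75% for those scores. The tiles with a WT peak, 72.4%, were 47.4% for shared sites. Why these values moved was not tested. The WT lists were called at thresholds of 16 and 17 tags, and the median scores in the loci were 18 and 20. The median scores of the whole lists are not given here.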
